A study of Mus musculus with 26 samples.

Results

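The 8 genes described here, Cd3d, Cd3e, Cd3g, Cd247, Ptcra, Zap70, Lat and Lcp2, encode the signalling chains of the T cell receptor and the first kinase and adaptors behind them. They were chosen by name out of 21887 protein-coding genes. Every H3K4me3 peak that came within 5 kb of a gene's annotated mm10 span was assigned to that gene. The series covers mouse cells without Ebf1, whose product specifies the B lineage, and all groups used here carry that Ebf1-/- genotype. One group is the Ebf1-/- progenitors, whose culture the labels leave out. The other is Early-B cells, made from such progenitors by expressing EBF1 from the MigR1-EBF1.ER vector and growing them for 2 days on OP9 stromal cells with SCF, FLT3-L, IL-7 and 4-hydroxytamoxifen. The labels give 2 immunoprecipitated samples per group, and 1 peak list per group was analysed, so no value below has a replicate error and no test between the groups was possible.

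H3K4me3 is trimethylation of lysine 4 on histone H3, a mark concentrated where transcription begins, at active and at poised genes. In a T cell, the receptor's own chains have almost no cytoplasmic part, and the CD3 gamma, delta and epsilon chains and the zeta chain carry the signal through tyrosine motifs called ITAMs. The tyrosine kinase Zap70 docks on phosphorylated ITAMs and phosphorylates the adaptors Lat and Lcp2 (SLP-76), which gather the downstream enzymes. Most of these genes are used mainly in T and NK cells. Some are also used in other blood cells, such as Lcp2 in platelets and myeloid cells. EBF1 directs cells to the B lineage.

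Both lists held a peak near every one of the 8 genes, but for several of them the peak belonged to a neighbour or lay away from the start. A peak in both lists was found for 8 of 8 genes, against 64.5% of all protein-coding genes. Over all genes, 8.47% had one in the Early-B list only, 1.76% in the progenitor list only and 25.3% in neither, classes that held none of the 8. When the gene span itself had to be met, 6 of the 8 had a peak in both lists, against 60.0% of all genes. The exceptions were Cd3g and Ptcra. In all, 19 Early-B peaks and 15 progenitor peaks were counted, each once. Of these, 13 in each list overlapped a peak of the other list by at least 1 bp. Over whole lists, 49.6% of Early-B and 77.2% of progenitor peaks did so. The 6 Early-B peaks without a counterpart were weak, with a −log10 p of at most 6.08 and a pileup of at most 22.8, and 5 of them had a q above 0.05. The 2 progenitor peaks without a counterpart had a −log10 p of at most 1.84, and both had a q above 0.05. Pileup, the read coverage of a peak, and −log10 p are the authors' values. Their scaling between the lists is not stated, so they are set side by side below and no change is read from them. In a mixed culture, fewer marked cells and less of the mark per cell cannot be told apart.

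**Figure D1:**
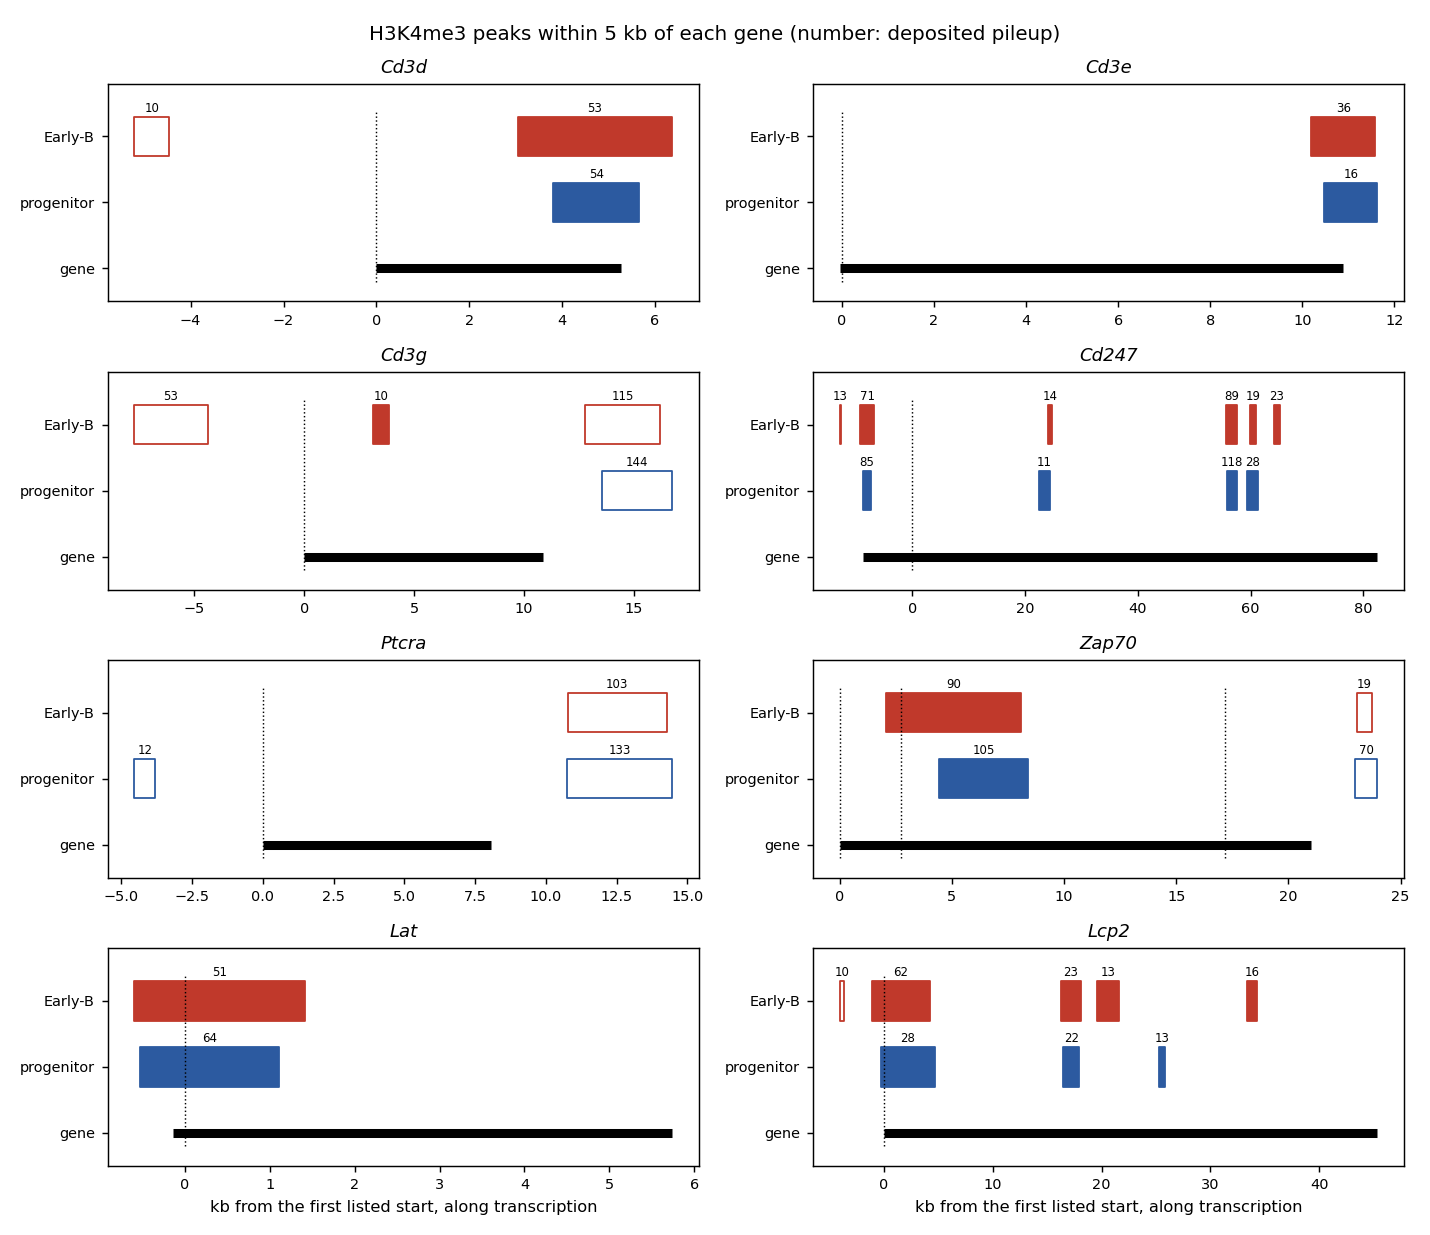
Peaks within 5 kb of each of the 8 genes, drawn along the direction of transcription in kb from the first listed start. Red bars are Early-B and blue bars progenitor peaks, filled where they meet the gene span and open where they do not. Numbers are the deposited pileup, dotted lines are listed starts and the black bar is the gene span. Only Lat and Lcp2 have a peak across a listed start in both lists, and at Zap70 the Early-B peak alone reaches a listed start.

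At the listed start sites the mark was found for few of the 8 genes. RefSeq's promoter table gave 10 starts for the 8 genes, 3 of them at Zap70. A peak within 1 kb of a listed start was found for 3 of 8 genes in the Early-B list (Zap70, Lat and Lcp2), against 59.7% of the 17492 protein-coding genes with a listed start. In the progenitor list it was found for 2 of 8 (Lat and Lcp2), against 57.0%. Both lists had one for 2 of 8, against 55.0%. The other 5 genes, Cd3d, Cd3e, Cd3g, Cd247 and Ptcra, had a peak within 5 kb of the span in both lists and none within 1 kb of a listed start in either, a pattern of 6.68% of all genes. For Cd3g and Ptcra, the peak found in both lists lay over a neighbouring gene, Ube4a and Cnpy3. Peaks over neighbours count in the share of all genes too. At Cd247 the pattern depends on which start is taken. Its span begins 8729 bp before the listed start, and a strong peak lies there in both lists, so 3 genes count in both lists when the 5′ end of the span is taken as a start too. With a window of 2.5 kb, Zap70 joins Lat and Lcp2, and 3 genes count in both lists as well.

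The 250 bases before the start are shown for 6 of the 10 starts, in order to set genes with a peak at the start beside genes without one. They are from RefSeq, build GRCm38.p6, the assembly of mm10, written 5′ to 3′ along the gene's own strand, with CpG dinucleotides in capitals. Lcp2 and Lat had a peak across the start in both lists, and the second start of Zap70 lay inside a peak in the Early-B list only. Cd3d, Cd3g and Ptcra had no peak within 1 kb. The windows are chr11:34046678-34046927 (plus strand) for Lcp2, chr7:126369569-126369818 (minus) for Lat, chr1:36764265-36764514 (plus) for Zap70, chr9:44981536-44981785 (plus) for Cd3d, chr9:44980432-44980681 (minus) for Cd3g and chr17:46763713-46763962 (minus) for Ptcra.
Lcp2: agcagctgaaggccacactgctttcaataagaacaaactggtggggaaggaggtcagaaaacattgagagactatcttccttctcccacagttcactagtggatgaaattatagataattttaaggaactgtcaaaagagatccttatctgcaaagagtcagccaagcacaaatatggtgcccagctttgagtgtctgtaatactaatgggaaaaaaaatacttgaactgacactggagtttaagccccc
Lat: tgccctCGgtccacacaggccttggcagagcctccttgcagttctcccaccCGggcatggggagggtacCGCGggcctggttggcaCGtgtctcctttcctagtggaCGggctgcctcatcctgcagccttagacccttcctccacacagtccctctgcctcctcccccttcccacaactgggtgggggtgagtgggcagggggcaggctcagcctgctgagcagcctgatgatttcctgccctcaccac
Zap70, second start: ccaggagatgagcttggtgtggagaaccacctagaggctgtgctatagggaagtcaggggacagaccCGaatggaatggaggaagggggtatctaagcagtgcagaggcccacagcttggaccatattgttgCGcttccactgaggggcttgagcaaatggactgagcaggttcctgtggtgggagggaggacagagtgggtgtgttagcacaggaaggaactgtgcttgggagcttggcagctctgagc
Cd3d: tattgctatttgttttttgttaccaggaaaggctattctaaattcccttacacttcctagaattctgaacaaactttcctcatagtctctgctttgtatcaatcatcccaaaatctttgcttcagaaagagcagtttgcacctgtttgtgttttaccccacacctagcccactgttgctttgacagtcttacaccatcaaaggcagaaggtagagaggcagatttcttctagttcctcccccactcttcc
Cd3g: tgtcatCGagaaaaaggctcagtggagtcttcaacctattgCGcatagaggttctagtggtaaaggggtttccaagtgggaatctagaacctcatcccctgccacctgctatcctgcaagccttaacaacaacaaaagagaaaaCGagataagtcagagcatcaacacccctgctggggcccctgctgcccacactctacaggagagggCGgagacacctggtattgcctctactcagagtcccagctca
Ptcra: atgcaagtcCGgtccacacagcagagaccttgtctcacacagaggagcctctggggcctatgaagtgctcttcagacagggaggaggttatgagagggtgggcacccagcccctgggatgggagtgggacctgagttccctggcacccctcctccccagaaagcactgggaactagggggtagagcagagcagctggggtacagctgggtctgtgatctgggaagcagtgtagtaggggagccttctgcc

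These windows were poor in CpG. All 10 windows of the 8 genes held fewer CpG dinucleotides than the median of 10 over 21263 protein-coding starts. Lcp2 and Cd3d held 0, Ptcra 1, the second start of Zap70 2, Cd247 3, Cd3g 4, Lat and the first start of Zap70 6, and Cd3e and the third start of Zap70 7. Windows with equal CpG differed in the mark: with 0 in each, Lcp2 had a peak across its start in both lists and Cd3d had none within 1 kb. Over all starts with 0 to 2 CpG, a peak lay within 1 kb for 14.8% (Early-B) and 11.4% (progenitors). At 6 to 11 CpG these shares were 64.1% and 59.4%, and at 12 or more 87.7% and 87.0%.

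**Figure D2:**
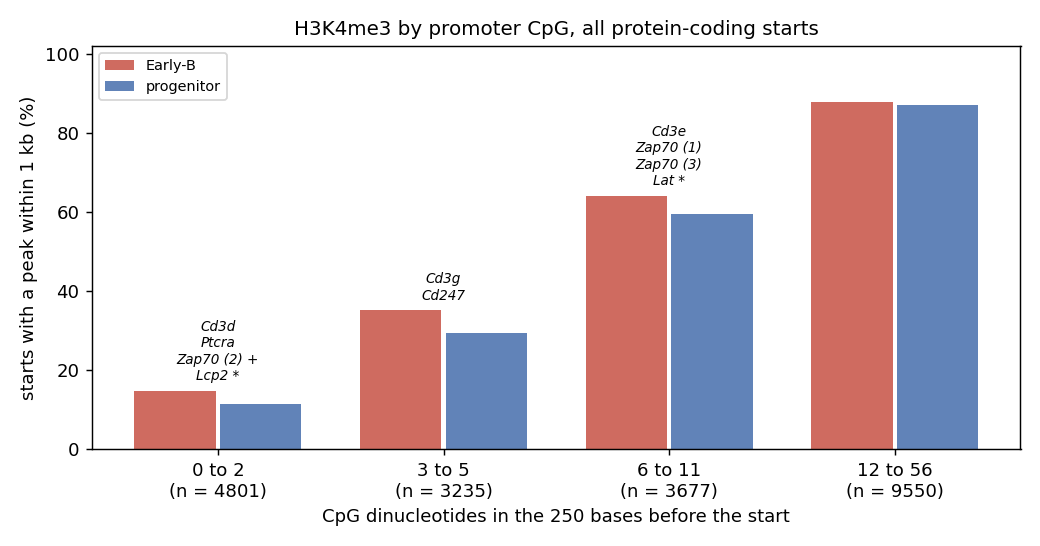
Share of all protein-coding starts with an H3K4me3 peak within 1 kb (y axis, %), by the number of CpG dinucleotides in the 250 bases before the start (x axis), for the Early-B list (red) and the progenitor list (blue). Names place the 10 starts of the 8 genes in their bins, with an asterisk for a peak in both lists, a plus for Early-B only and the start's number in brackets for Zap70. No start of the 8 genes falls in the bin from 12 to 56 CpG, where 87.7% and 87.0% of starts have a peak.

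Motifs of lymphoid factors were searched on both strands of the 10 windows, as letters only. The E-box CANNTG, the recognition sequence of E proteins, was in 10 of 10, against 62.8% of all windows of this length. Its form CAGCTG, whose matches also count as E-boxes, was in 2 of 10, against 12.1%. Ptcra held it at both 60 and 49 bases before the start, and Lcp2 held it 248 bases before. The ETS core GGAAG was in 8 of 10, against 65.1%. The letters CTTTGA of TCF and LEF factors were in 3 of 10, against 12.7%, with 2 matches at Cd3d, 73 and 54 bases before the start. The RUNX letters TGTGGT were in 1, the second start of Zap70 (75 bases before), against 12.4%. The EBF1 palindrome, TCCC and GGGA with any 2 bases between, was in 0 of 10, against 0.832%.

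The CD3 chain genes Cd3g, Cd3d and Cd3e lie together on chromosome 9 (mm10, 44969572 to 45009663, 40.1 kb). Cd3g and Cd3d are transcribed away from each other from starts 1355 bp apart, and the 3 genes are known to be expressed together in T cells. No peak of either list lay over any of the 3 starts. The gap without a peak around the starts of Cd3g and Cd3d measured 7499 bp for Early-B and 18696 bp for progenitors. On the Cd3g side the Early-B gap ended at a weak 750-bp peak, with a pileup of 10.1 and a −log10 p of 1.29. The progenitor list held no peak there, so the difference in gap size rests on that weak peak. The gap across the start of Cd3e measured 39724 bp and 42262 bp. Peaks covered 5472 bp of the cluster in the Early-B list, in 3 peaks with the weak one included, and 3007 bp in the progenitor list, in 2 peaks.

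Both progenitor peaks in the cluster and 2 of the 3 Early-B peaks lay at the 3′ ends of Cd3d and Cd3e, and the other Early-B peak lay inside Cd3g. Cd3d encodes the CD3 delta chain. Its Early-B peak (chr9:44984824-44988154) was 3331 bp long with a pileup of 53.4 and a −log10 p of 34.5. Its progenitor peak (chr9:44985598-44987446) was 1849 bp long with a pileup of 54.3 and a −log10 p of 35.4. The height was nearly the same in both lists, and the Early-B peak reached 774 bp further upstream and 708 bp further downstream. Both cover the gene's 3′ end and begin 3.04 and 3.81 kb past the start. Work on this locus has described an enhancer 3′ of the gene, and whether these peaks mark it was not tested.

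Cd3e encodes the CD3 epsilon chain and runs toward lower coordinates, so its peaks at the lower end are at its 3′ end. The Early-B peak (chr9:44998028-44999418) was 1391 bp long with a pileup of 35.7 and a −log10 p of 16.9. The progenitor peak (chr9:44997981-44999138) was 1158 bp long with a pileup of 16.2 and a −log10 p of 3.05, and its q of 0.0519 was just above 0.05. The Early-B pileup was 2.20 times the progenitor value, and 93.3% of the 22623 peaks shared one to one between the lists had a lower ratio. Both peaks begin over 10 kb from the listed start, at 10.19 and 10.47 kb.

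Cd3g, which encodes the CD3 gamma chain, had no strong peak of its own. Inside its span the Early-B list held a 750-bp peak (chr9:44976575-44977324) with a pileup of 10.1, a −log10 p of 1.29 and a q of 1.0, and the progenitor list held none. The other peaks within 5 kb belonged to neighbours. One was the Early-B peak at the 3′ end of Cd3d, which begins 4.39 kb upstream of the Cd3g start. The other lay over Ube4a, a ubiquitin ligase gene, with an Early-B pileup of 115 and a progenitor pileup of 144.

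Cd247 encodes the zeta chain, which carries several ITAMs, and had the most peaks of the 8 genes, with 6 Early-B and 4 progenitor peaks. The peak at the 5′ end of its span (chromosome 1, 165779952 to 165871153) was 2519 bp long in Early-B (chr1:165779446-165781964) with a pileup of 71.3. The progenitor peak there was 1323 bp long (chr1:165779972-165781294) with a pileup of 84.7. The Early-B peak was thus the longer and the lower of the pair, with a length 1.90 times that of the progenitor peak. The strongest Cd247 peak in both lists lay deep inside the gene, 55.58 and 55.72 kb past the listed start. The Early-B peak (chr1:165844261-165846283) measured 2023 bp, with a pileup of 88.7 and a −log10 p of 75.3. The progenitor peak (chr1:165844404-165846278) measured 1875 bp, with a pileup of 118 and a −log10 p of 113. No start is listed there. A weaker peak next to it was the longer in progenitors, 1949 bp against 1183 bp, with pileups of 28.1 and 18.8. An Early-B peak without a counterpart (chr1:165852771-165853893) had a pileup of 22.8 and a −log10 p of 6.08, the highest of the private peaks of the 8 genes. A further shared pair near the middle of the gene was weak in both lists (pileups of 14.2 and 11.01), and a 235-bp Early-B peak upstream of the span had a pileup of 13.4.

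Ptcra encodes the pre-T alpha chain, which pairs with the T cell receptor beta chain in developing thymocytes. No peak of either list met the Ptcra span (chromosome 17, 46755663 to 46763712). Its call in both lists rested on the peak at Cnpy3, a chaperone gene, whose near edge lay 2720 bp beyond the 3′ end of Ptcra in the Early-B list and whose pileup was 103 in Early-B and 133 in progenitors. The progenitor list alone held a 745-bp peak upstream of the gene (chr17:46767508-46768252), 3.80 kb before the start. It had a pileup of 12.4, a −log10 p of 1.39 and a q of 0.923. An enhancer of Ptcra is known a few kilobases upstream of the gene, and whether this weak peak marks it was not tested.

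Zap70, the kinase of the pathway, had the longest peak among the 8 genes. The Early-B peak (chr1:36763876-36769902) covered 6027 bp, longer than 97.4% of that list's peaks, with a pileup of 90.2 and a −log10 p of 71.7. The progenitor peak (chr1:36766248-36770186) covered 3939 bp, longer than 90.7% of its list, with a pileup of 105 and a −log10 p of 104. The downstream edges were 284 bp apart, the progenitor peak reaching further, while the Early-B peak reached 2372 bp further upstream. That extension takes in the second listed start (36764515), which lies 1733 bp upstream of the progenitor peak. The first listed start (36761798) was outside both, 2078 and 4450 bp from the nearest peak. Downstream of the gene the progenitor peak was both the longer (997 against 700 bp) and the higher of the pair. A peak about 2 kb past the 3′ end (1942 bp in progenitors, 2008 bp in Early-B) had a pileup of 70.5 and a −log10 p of 51.5 in progenitors (chr1:36784763-36785759). In Early-B it had 19.1 and 5.27 (chr1:36784829-36785528). The Early-B pileup was 0.27 times the progenitor value, and 0.451% of all one-to-one shared peaks had a lower ratio. This peak met no protein-coding gene.

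The adaptor genes had the mark across their starts in both lists. Lat, the membrane adaptor, had 1 peak per list. The Early-B peak (chr7:126368153-126370163) was 2011 bp long with a pileup of 50.6 and a −log10 p of 32.2. The progenitor peak (chr7:126368461-126370099) was 1639 bp long with a pileup of 63.7 and a −log10 p of 47.4. Both also met the 3′ end of Spns1, the neighbour upstream on the same strand, whose own start carried a separate peak in both lists.

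Lcp2, the cytosolic adaptor SLP-76, had a long peak across its start in both lists and the greater height in Early-B. The Early-B peak (chr11:34045785-34051148) was 5364 bp long with a pileup of 62.0 and a −log10 p of 48.4. The progenitor peak (chr11:34046672-34051570) was 4899 bp long with a pileup of 28.1 and a −log10 p of 10.9. Despite that modest height, the progenitor peak was longer than 94.9% of its list. The pileup ratio was 2.20, as at Cd3e. Inside the gene a shared peak had a pileup of 22.6 in Early-B and 21.7 in progenitors. The remaining Lcp2 peaks, 3 in Early-B and 1 in progenitors, had pileups from 10.2 to 15.6 and no counterpart.

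Across the group, length and height went different ways. Of 10 one-to-one shared peaks that met the span of 1 of the 8 genes, 8 were longer in Early-B (80.0%), against 62.9% of all such pairs. Pileup was higher in Early-B in 4 of the 10 (40.0%), against 34.1%. The median length ratio of Early-B to progenitor was 1.21, against 1.11 over all pairs, and the median pileup ratio was 0.92, against 0.84. Summed over the 5 kb windows, 7 of the 8 genes had more peak bases in the Early-B list, against 69.7% of all genes with a peak, and Ptcra was the exception. The group therefore sat near the background in both respects. When a −log10 p of 10 was required of both lists, 7 of 8 had a peak in both, against 54.7% of all genes. Cd3e was left with its Early-B peak only, and the peaks that counted for Cd3g and Ptcra lay over neighbouring genes.

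**Figure D3:**
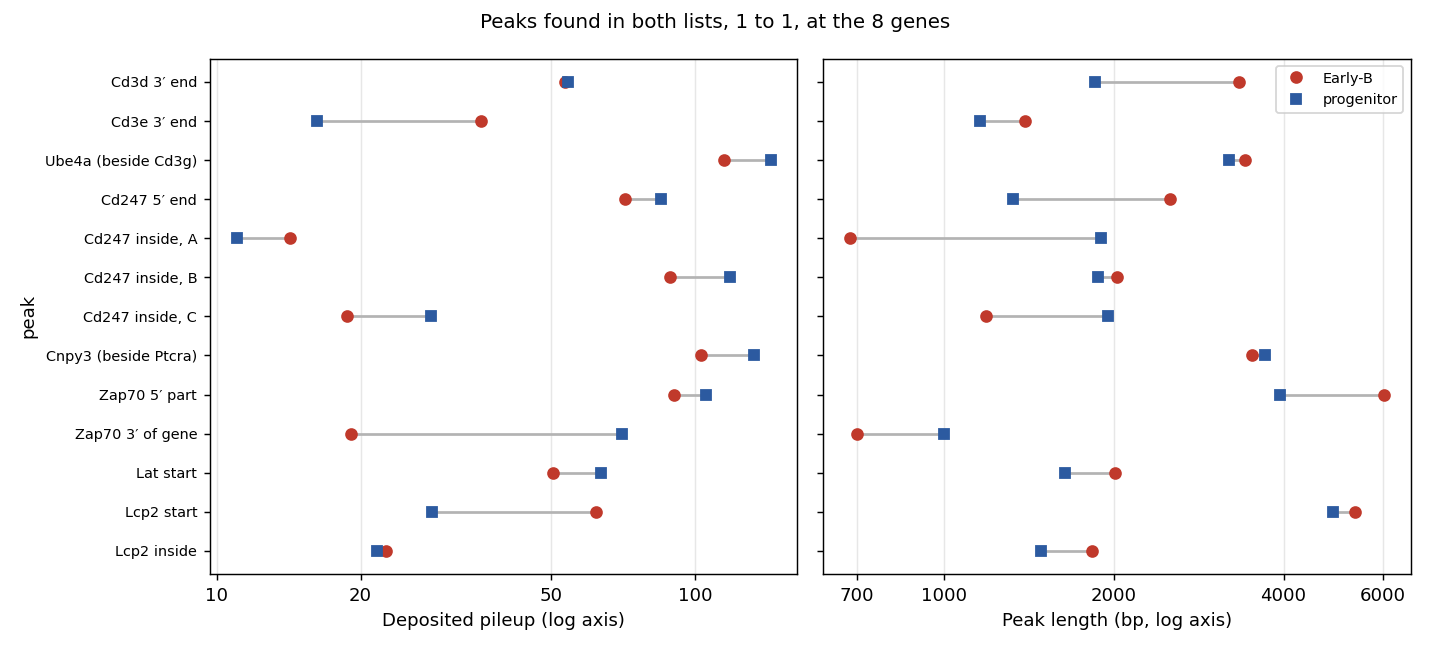
Deposited pileup (left, log axis) and peak length in bp (right, log axis) of the 13 peaks found one to one in both lists within 5 kb of the 8 genes. Red circles are Early-B and blue squares progenitors, joined by a grey line. Cd3e at its 3′ end and Lcp2 at its start have the higher pileup in Early-B (both 2.20 times), and the peak 3′ of Zap70 has the lower (0.27 times).

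Other genes of T cell receptor signalling were compared by count, from a list of 35. Of these, 31 had a peak within 5 kb in both lists (88.6%). The 4 named here had the highest −log10 p in either list, which was the progenitor value for each. Near the phosphatase gene Ptpn22 it was 243 for Early-B and 286 for progenitors, at peaks that lay wholly outside the gene span and so may belong to a neighbour. The values were 187 and 254 at the adaptor Nck1, 203 and 249 at the adaptor Grb2, and 169 and 243 at the ubiquitin ligase Cblb. Early-B only were Rasgrp1, an activator of Ras (35.7), and Skap1, an adaptor for integrin activation (23.7). Trat1, which encodes a receptor-associated adaptor, was progenitor only (6.17). Themis, needed for thymocyte selection, had a peak in neither. When both lists had to reach a −log10 p of 10, 30 remained in both, a class they shared with 7 of the 8 genes. Among those 7, Cd3g and Ptcra counted only through peaks over neighbouring genes. None of the 35 shared the class of Cd3e, which was in both lists at the deposited threshold and in Early-B only at 10.

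At the starts the rest of the pathway differed in count from the 8 genes. Of the 27 with a listed start, 24 had an Early-B peak within 1 kb of it (88.9%) and 22 a progenitor peak (81.5%), against 3 and 2 of the 8. The pattern of a peak in both lists and none at a start in either was found for 1 of the 27, Grap2, the adaptor that joins Lat to Lcp2. Grap2 was named after its values were seen. Its strongest peak in each list (chr15:80571074-80574662 for Early-B, chr15:80571206-80575420 for progenitors) crossed the lower-coordinate end of its span, at 80572597. If transcription begins at that end, its place in this pattern depends on which start is taken, as at Cd247. The 27 genes were not recounted with the 5′ end of the span taken as a start. No test of this difference was made, since genes are not replicates and each group has 1 list.

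**Figure D4:**
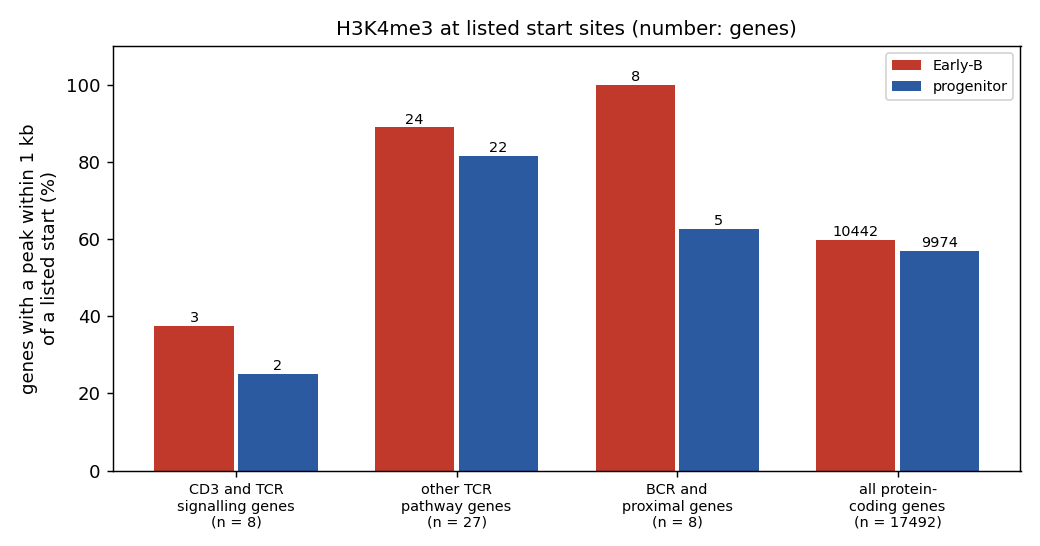
Percent of genes (y axis) with an H3K4me3 peak within 1 kb of a listed start in the Early-B list (red) and the progenitor list (blue), for the 8 genes, 27 other genes of the pathway, 8 B cell receptor genes and all 17492 protein-coding genes with a listed start. Numbers over the bars count genes. The 8 genes stand at 3 and 2, or 37.5% and 25.0%, and all genes at 59.7% and 57.0%.

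The B cell receptor and its proximal genes have the same parts as the T cell pathway and gave a contrast at the starts. All 12 had a peak within 5 kb in both lists, against 64.5% of all genes. At a −log10 p of 10, 8 of the 12 stayed in both, 3 were Early-B only and 1 was in neither. Of 8 with a listed start, 8 had an Early-B peak there, against 59.7% of all genes. A progenitor peak was there for 5 (62.5%), near the 57.0% of all genes. Igll1 and Vpreb1 both counted in Early-B through the same peak, 18321 bp long, which crossed both starts. Cd79a, which like the CD3 chains carries an ITAM, had an Early-B peak across its start, and the nearest progenitor peak was 4301 bp away. Blnk, the B cell relative of Lcp2, had a peak of 8221 bp across its start in Early-B with a pileup of 185, and the nearest progenitor peak was 4405 bp from that start. Lcp2 itself was marked across the start in both lists. Syk, the kinase related to Zap70, had a peak across both of its listed starts in both lists. At its stronger peak the pileup was 125 in Early-B and 150 in progenitors. Lat2, the relative of Lat in other blood cells, had a strongest peak with a pileup of 72.7 in Early-B and 115 in progenitors.

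Markers of other cells that these cultures could hold were mostly weak. Of all protein-coding genes, 64.5% had a peak in both lists, 8.47% in the Early-B list only and 25.3% in neither. Of 6 NK markers, 3 had a peak in both lists and 3, Ncr1, Klrb1c and Gzmb, in neither, and only Klrd1 reached a −log10 p of 10 in both. Of 6 myeloid markers, 4 had a peak in both lists, with a highest −log10 p of 7.23, and none reached 10 in either. Of 6 stromal markers, 3 were in both lists and Postn, Sparc and Lox were Early-B only, with a highest −log10 p of 35.0 at Sparc. Pdgfrb, in both, went the other way, with 6.24 for Early-B and 15.5 for progenitors. At a −log10 p of 10, Postn and Sparc were Early-B only, Pdgfrb was progenitor only, and the other 3 were in neither. Of all genes, 5.3% were Early-B only at that threshold, 2.67% progenitor only and 37.3% in neither. The part of such cells in the peaks of the 8 genes was not tested.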

How the data were processed

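Of 26 labelled samples, those of H3K4me3 chromatin immunoprecipitation were used, through 1 peak list for Early-B cells and 1 for Ebf1-null progenitors, matched to the groups by the lists' names. The submitters' processing notes name Bowtie 1.1.2 and MACS 1.4.3, and as builds mm10 and GRCh38, without saying what each was used for. How replicates and input entered the calls is not stated there. Each peak's pileup, a coverage signal, and its fold enrichment, a ratio to background, were deposited by the authors. For each peak the authors also deposited 2 columns with damaged names, taken here as −log10 of p and of q because of their order and values. The smallest −log10 p listed is 1.01. There are 48054 Early-B and 31414 progenitor peaks and no read counts, so depth is unknown.

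Peaks were joined to RefSeq gene spans of GRCm38.p6, widened by 5 kb, and to the starts in RefSeq's promoter table, with a window of 1 kb. All 8 genes and the 35 others of the pathway matched by symbol. A peak was shared when it overlapped a peak of the other list by at least 1 bp. Motifs and CpG were counted in the 250 bases before a start, not in the 50 after it. Named were the 8 genes, 4 related genes, and up to 4 pathway genes per class by −log10 p; the values of 1 related gene are not reported here. Genes and lists were chosen with earlier results of these data known. Percentages over all genes describe the lists and are no test. Python 3.11.15, numpy 2.4.6, pandas 2.3.3 and matplotlib 3.10.9 were used. The code was tested on simulated peaks.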

Additional observations from a re-analysis of the deposited data

How the results depend on the processing

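The 9 counts were recomputed under 11 alternatives, 10 of them planned and 1, the 5′ end of the span taken as a start, added after seeing the data. Of 64 values, 61 stayed within 1.5 times the reported count. The 3 that moved further all came from requiring a −log10 p of 10 everywhere: Early-B peaks went from 19 to 9, and the peaks overlapping the other list from 13 to 8 in each list. The order of the lists also changed. The reported counts were 19 Early-B and 15 progenitor peaks, but 13 and 15 at equal list lengths, and 9 and 10 at that threshold. The other alternatives that recounted them kept the Early-B count the higher. Genes with a peak in both lists numbered 6 to 8. They were 6 when peaks that meet only a neighbouring gene were left out, which removes Cd3g and Ptcra, and 7 at a q of at most 0.05, which removes the progenitor peak of Cd3e. Genes with a peak at a start in both lists numbered 2 or 3. Leaving out a replicate could not be run, because each group has 1 list. No paired analysis was possible because the replicates of a group share 1 peak list. Widening the window to 10 kb added 3 peaks per list. Depth is unknown, so a missing peak, as at Ptcra, says only that none was listed.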
